A study of Mus musculus with 7 samples.

Results

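The myosin heavy chain genes of adult skeletal muscle were measured in soleus, a hindlimb muscle rich in slow fibres. They are Myh7, the slow chain, and Myh2, Myh1 and Myh4, the fast chains IIa, IIx and IIb. The members were the spots that the array's annotation assigns to these symbols. Each gene had 1 spot, so the family made up 4 of the 203 named genes on an array of 223 spots. The 7 samples form 1 group of wild-type 129/SV mice kept as cage controls, with no allele, agent, time or age given in the labels. Total RNA came from cryosections of the muscle belly and was copied with gene-specific primers and a radioactive label. The title of replicate 5 holds the code C16 and the other 6 hold C15, and no label explains these codes. The labels do not state that each sample is a separate animal, so the 7 samples may not be independent. The permutation p-values treat them as exchangeable and hold for these samples only, and the spread between samples may be partly technical.

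Myosin heavy chain is the motor of the thick filament. Each adult fibre is typed by the chain that dominates it, and the order of shortening speed runs from the slow chain through IIa and IIx to IIb. Slow and IIa fibres are rich in mitochondria and resist fatigue, while IIb fibres depend mostly on glycolysis. Mouse soleus is known mainly for slow and IIa fibres, with IIx in part and little IIb. The fast genes lie side by side in a cluster, and Myh7 lies on another chromosome beside the cardiac alpha chain gene.

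In the RefSeq gene table of GRCm38.p6, Myh2, Myh1 and Myh4 followed each other in that order among the protein-coding genes of chromosome 11, between Myh3 and Myh8, the embryonic and perinatal chains. Myh7 was on chromosome 14. Stretches upstream of the annotated starts are printed because the fast neighbours share a sequence there that was not found before Myh7, and the values of these neighbours are compared with each other and with Myh7 further on. Capitals mark the longest run common to the 250 bases before the starts of the 3 fast genes, with 30 bases on each side, and for Myh7 a TATATA stretch in the 80 bases before the second of its 2 starts in the table. All are written 5′ to 3′ on the gene's strand, from RefSeq.
Myh2, chr11:67170867-67170946, plus strand: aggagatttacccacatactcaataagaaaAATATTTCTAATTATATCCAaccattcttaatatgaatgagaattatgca
Myh1, chr11:67199907-67199986, plus strand: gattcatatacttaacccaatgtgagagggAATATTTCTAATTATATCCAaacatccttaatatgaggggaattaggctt
Myh4, chr11:67237619-67237698, plus strand: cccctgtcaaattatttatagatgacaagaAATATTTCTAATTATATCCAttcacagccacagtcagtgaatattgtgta
Myh7, chr14:54994550-54994629, minus strand: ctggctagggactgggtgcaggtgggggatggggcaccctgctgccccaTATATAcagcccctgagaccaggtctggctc

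The shared run was 20 bases long. It was picked as common to the windows of Myh2, Myh1 and Myh4, so that these 3 hold it was fixed in advance. Among 32536 distinct upstream windows of 250 bases in the table, no other held it on either strand (3 windows in all, 0.00922%). A run of this length is rare in any case, so the share is no measure of a special trait. It began 130 bases before the annotated start of Myh2, 165 before that of Myh1 and 163 before that of Myh4. The longest run that a fast window shared with a Myh7 window was 9 bases. Motifs were searched in the same windows on both strands. The E-box CANNTG, a site of muscle determination factors, occurred 2 times in Myh4 and in neither Myh2 nor Myh1. It occurred 2 times before the second start of Myh7 and once before the other, and 66.2% of all windows held it. The MEF2 motif, a site of a muscle transcription factor family, occurred once in Myh1 and once in Myh4, against 2.89% of all windows, and in neither Myh2 nor Myh7. TATAAA occurred 2 times in Myh1 and 3 times in Myh4, against 12.3% of all windows, and 1 match in each overlapped the MEF2 match. The CArG motif occurred once, in Myh4 (1.48% of windows), and CATTCC once each in Myh1, Myh4 and the first Myh7 window (12.6%). These are matches of letters in fixed windows, and binding was not measured.

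Myh7 gave the highest signal of the family on every array. In the deposited values, its ratio to Myh4 had the widest range of the 6 ratios between members. Values are a spot's deposited ratio as a percent of the array's summed signal, in which the 28S ribosomal RNA spot and spot 1M, which has no gene name, are not counted. Primer and probe differ between genes, so a level or ratio between genes is one of signals and not of transcript numbers. Only the differences between samples can be compared, and in bulk RNA fewer fibres of a type and less RNA per fibre cannot be told apart.

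Myh7 had its highest value in replicate 3, at 12.6%, followed by replicate 4 at 10.6%. It was 8.98%, 8.48% and 7.87% in replicates 5, 6 and 2, and 6.97% and 6.82% in replicates 1 and 7. Replicates 3 and 4 therefore lay above the other 5, whose values ran on without a wide gap. The mean was 8.91% ± 2.09 (SD, n = 7), a coefficient of variation of 23.4%, and the highest value was 1.85 times the lowest.

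Myh2, the chain of fast oxidative fibres, was also highest in replicates 4 and 3, at 3.32% and 3.21%. It lay between 1.91% in replicate 2 and 2.37% in replicate 5 in the other samples. The mean was 2.52% ± 0.535 (SD, n = 7) and the coefficient of variation 21.3%. The same 2 samples thus led for the slow chain and for IIa, although in opposite order.

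Myh1, the IIx chain, was highest in replicate 4 at 3.33%. Replicates 5 and 3 followed at 2.64% and 2.53%, then replicates 6, 7, 1 and 2 at 2.35%, 2.23%, 1.98% and 1.82%. Replicate 3, first for Myh7, ranked the third here, close to replicate 5. The mean was 2.41% ± 0.497 (SD, n = 7) and the coefficient of variation 20.6%.

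Myh4, the IIb chain, ordered the samples differently. It was highest in replicate 7 at 1.02%, and replicates 5, 1 and 6 followed at 0.98%, 0.97% and 0.90%. Replicates 4 and 3, the highest for Myh7, had 0.84% and 0.83%, and replicate 2 had the lowest value, 0.69%. The mean was 0.890% ± 0.114 (SD, n = 7), with a coefficient of variation of 12.8%.

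**Figure D1:**
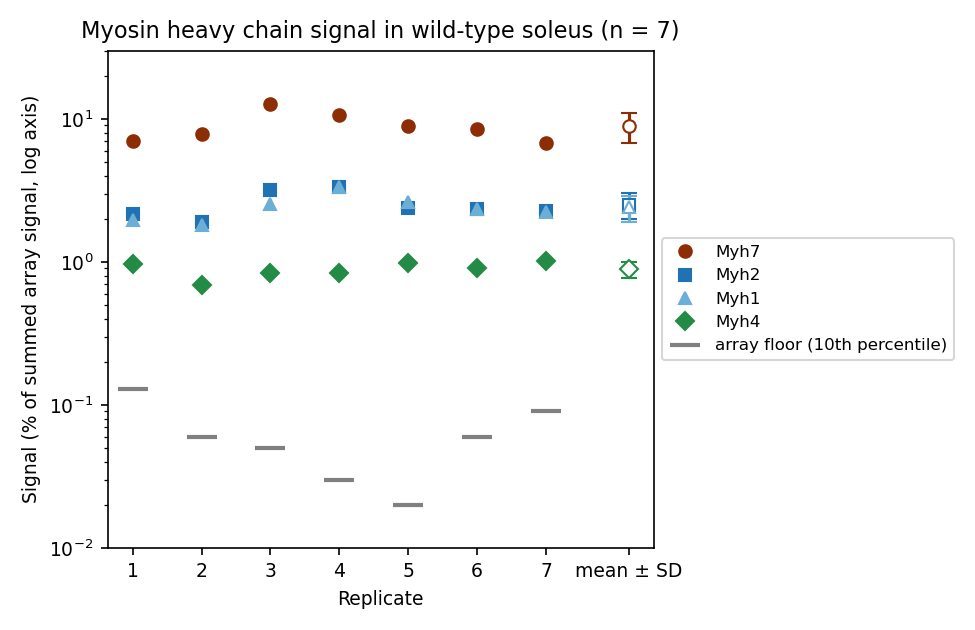
Signal of the 4 heavy chain genes in each of the 7 replicates, in percent of the summed array signal on a log axis, with the mean ± SD at the right (open symbols) and each array's 10th percentile over all spots as a grey bar. Myh7 lies between 6.82% and 12.6%, Myh4 between 0.69% and 1.02%, and the grey bars between 0.02% and 0.13%.

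All 4 genes stood clear of the low end of the array. The floor of an array was taken as its 10th percentile over all spots, which was lowest in replicate 5 at 0.02% and highest in replicate 1 at 0.13%. A gene counted as above the floor when it exceeded 2 times that value on all 7 arrays, as 44 of the 203 genes did, the 4 heavy chains among them. Myh7 was at least 53.6 times the floor, Myh2 at least 16.8 times and Myh1 at least 15.2 times. Myh4 was at least 7.46 times, so that the floor equalled 13.4% of its signal in replicate 1 and 2.04% in replicate 5. The spread of log2 levels was 0.32 for Myh7, 0.29 for Myh2, 0.29 for Myh1 and 0.19 for Myh4 (SD), against a median of 0.37 over the 40 other genes above the floor. Whether 1 gene varied more than another was tested for all 6 pairs, by correlating the sum and the difference of their log2 values over the samples (the Pitman-Morgan comparison). None passed. For Myh7 against Myh4 the exact permutation p was 0.260 (two-sided, adjusted p = 0.808 over 6 pairs), and the lower spread of Myh4 did not pass with 7 samples. Without replicate 2, which had the lowest Myh4 level, the correlation of sum and difference was 0.933 in place of 0.492 for Myh7 against Myh4 (adjusted exact p = 0.05) and 0.887 in place of 0.396 for Myh2 against Myh4 (adjusted exact p = 0.121), still without passing.

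Together the 4 genes took 14.7% ± 2.90 (SD, n = 7) of the summed signal, from 12.1% in replicate 1 to 19.2% in replicate 3. Within the family, Myh7 held 60.2% ± 3.64 of the signal, Myh2 17.1% ± 1.17, Myh1 16.5% ± 1.89 and Myh4 6.26% ± 1.53 (SD, n = 7 each). The Myh7 share was highest in replicate 3 at 65.8% and replicate 2 at 64.0%. It lay between 57.6% and 60.2% in replicates 1, 4, 5 and 6, and was lowest in replicate 7 at 55.3%. Replicate 4 thus had the second highest Myh7 level but only the fifth highest Myh7 share, and its Myh2 and Myh1 shares, 18.4% each, were the highest of the 7. The Myh4 share was 8.27% in replicate 7 and 8.02% in replicate 1, against 4.32% and 4.64% in replicates 3 and 4.

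**Figure D2:**
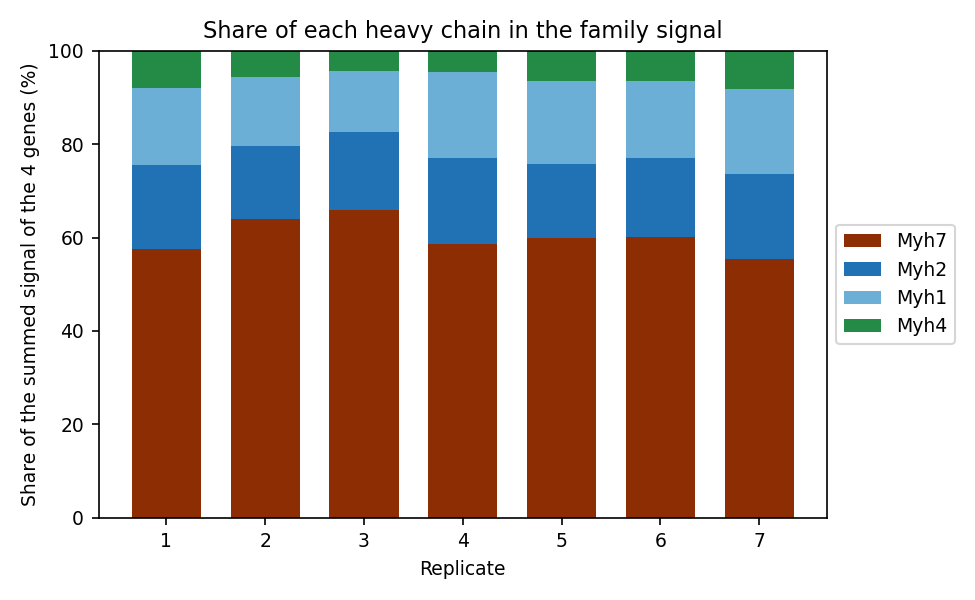
Share of each heavy chain in the summed signal of the 4 genes, in percent, as stacked bars for the 7 replicates. The Myh7 share is 55.3% in replicate 7 and 65.8% in replicate 3, its lowest and highest values. The Myh4 share is 8.27% and 4.32% in the same replicates, the reverse order.

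A factor common to all spots of an array cancels in a ratio within a sample. The ratio of Myh7 to Myh2, slow to IIa, ran from 3.02 in replicate 7 to 4.12 in replicate 2, with a median of 3.59 and a mean of 3.55 ± 0.422 (SD, n = 7). The ratio of Myh7 to Myh1, slow to IIx, ran from 3.06 in replicate 7 to 4.996 in replicate 3, with a median of 3.52 and a mean of 3.73 ± 0.692. The ratio of Myh7 to Myh4, slow to IIb, ran from 6.69 in replicate 7 to 15.2 in replicate 3, with a median of 9.42 and a mean of 10.2 ± 3.05. It thus spanned 2.28-fold, against 1.37-fold for Myh7 to Myh2 and 1.63-fold for Myh7 to Myh1.

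Replicate 7 was lowest in each of the 3 slow-to-fast ratios. Replicates 3, 4 and 2 were the highest for Myh7 to Myh4, at 15.2, 12.6 and 11.4. They arrived there by different members, replicate 3 with the highest Myh7 and replicate 2 with the lowest Myh4. Replicate 4 was far lower for Myh7 to Myh1, at 3.18, the second lowest of the 7.

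Among the fast chains, the ratio of Myh2 to Myh1 ran from 0.898 in replicate 5 to 1.27 in replicate 3, with a median of 1.01 and a mean of 1.05 ± 0.115 (SD, n = 7). Replicates 4, 6 and 7 were at 0.997, 1.004 and 1.01. The ratio of Myh2 to Myh4 ran from 2.22 in replicate 7 to 3.95 in replicate 4, with a median of 2.62. The ratio of Myh1 to Myh4 ran from 2.04 in replicate 1 to 3.96 in replicate 4, with a median of 2.64. Replicate 3 was also high for Myh2 to Myh4, at 3.87, but lower for Myh1 to Myh4, at 3.05. Most deposited values have 4 decimals, and rounding moves a log2 ratio by at most 0.014, in Myh1 to Myh4.

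**Figure D3:**
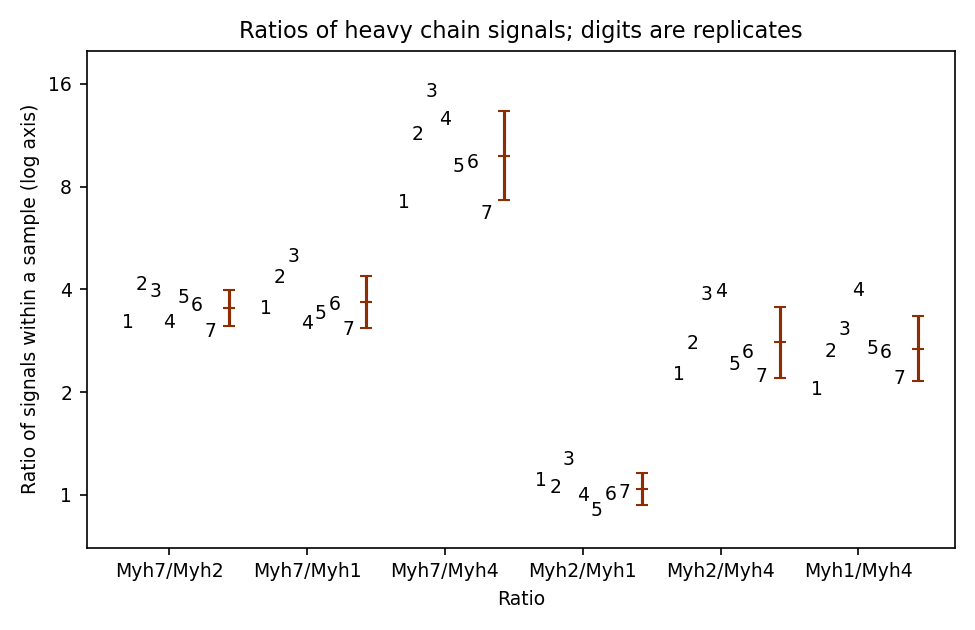
The 6 ratios between heavy chain signals within a sample, on a log axis; each digit is a replicate, and the bar at the right of each column is the mean ± SD of the log2 ratio. On this deposited scale, ratios with Myh4 spread widest, with Myh7/Myh4 from 6.69 to 15.2, while Myh2/Myh1 stays between 0.898 and 1.27.

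On the log2 scale the SD was 0.15 for Myh2 to Myh1, 0.17 for Myh7 to Myh2 and 0.25 for Myh7 to Myh1. It was 0.32 for Myh1 to Myh4, 0.35 for Myh2 to Myh4 and 0.43 for Myh7 to Myh4, so the 3 ratios with Myh4 were the widest. If the members varied without covariance, these SDs would be 0.41, 0.44, 0.43, 0.35, 0.35 and 0.38 in the same order. The observed SD was well under that value in the 3 ratios without Myh4, close to it for Myh1 to Myh4 and Myh2 to Myh4, and above it for Myh7 to Myh4. With quantile normalization the SD was 0.149 for Myh7 to Myh2, 0.172 for Myh7 to Myh1 and 0.207 for Myh2 to Myh1. It was 0.215 for Myh7 to Myh4, 0.234 for Myh2 to Myh4 and 0.297 for Myh1 to Myh4. The 3 ratios with Myh4 were thus still the widest, Myh7 to Myh4 only narrowly. The order within each group of 3 changed, so that order belongs to the deposited scale. The order of all 6 was kept when each array's floor was subtracted, with 0.41 for Myh7 to Myh4 and 0.16 for Myh2 to Myh1.

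The 780 pairs formed by the 40 other genes above the floor had a median ratio SD of 0.53. Of these pairs, 0.641% had a smaller SD than Myh2 to Myh1, 1.15% than Myh7 to Myh2 and 6.28% than Myh7 to Myh1. The corresponding shares were 13.2% for Myh1 to Myh4, 18.5% for Myh2 to Myh4 and 31.4% for Myh7 to Myh4. These shares describe where the ratios lie. The 780 pairs share genes and arrays and are not independent. Their genes were not matched to the heavy chains for signal, and some were dim, such as Srf with a mean of 0.187%. They also include the 28S spot, which is not counted in the summed signal. How far this lowers the shares was not tested.

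**Figure D4:**
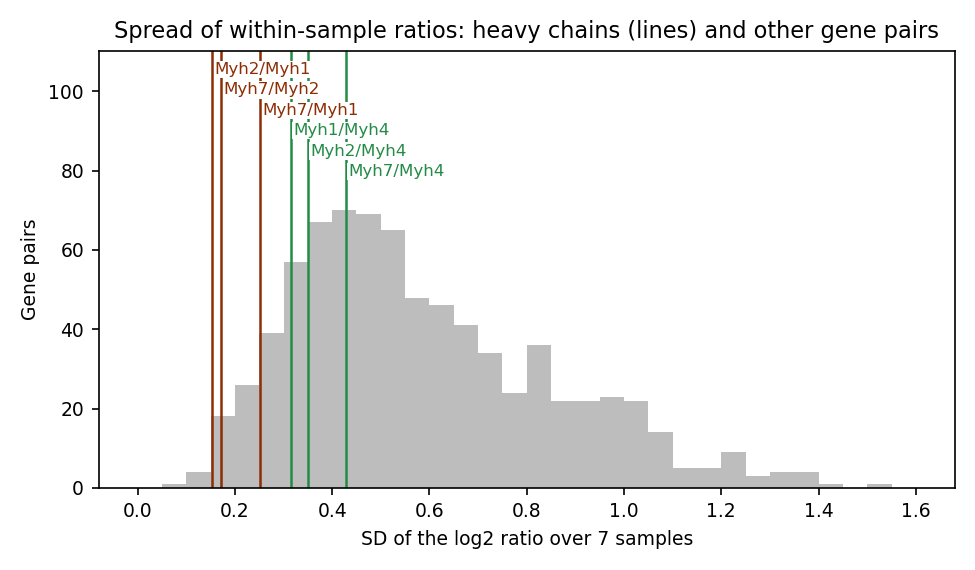
Histogram of the SD of the log2 ratio over the 7 samples for 780 pairs of other genes above the floor, with lines for the 6 heavy chain ratios (brown without Myh4, green with Myh4). The brown lines lie at 0.15, 0.17 and 0.25 and the green lines at 0.32, 0.35 and 0.43, against a median of 0.53 for the other pairs.

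For 1 value per sample, Myh7 was set against the mean log2 of the 3 fast chains. This slow-to-fast log2 ratio was 2.33 ± 0.26 (SD, n = 7). It was highest in replicate 3 at 2.74 and replicate 2 at 2.56, between 2.11 and 2.33 in replicates 1, 4, 5 and 6, and lowest in replicate 7 at 1.98. Its spread was not distinguishable from that of any ratio between fast chains. The exact permutation p of the Pitman-Morgan comparison was 0.207 against Myh2 to Myh1, 0.371 against Myh2 to Myh4 and 0.629 against Myh1 to Myh4 (two-sided, adjusted p = 0.557, 0.557 and 0.629). After the values were seen, ratios with Myh4 were compared with ratios without it in 4 pairs. The spread of Myh7 to Myh4 exceeded that of Myh7 to Myh2 at an exact permutation p of 0.0401, with an adjusted p of 0.145 over the 4 pairs. The other 3 had exact permutation p from 0.0742 to 0.145, so none passed after adjustment.

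The log2 levels of Myh7, Myh2 and Myh1 had r from 0.662 to 0.860 with each other, and those of Myh4 had r from -0.342 to 0.184 with the other 3. No Pearson correlation passed after adjustment. Pearson's r of the log2 levels was 0.860 for Myh2 and Myh1 (exact permutation p = 0.0133, adjusted p = 0.0720 over 6 pairs). Spearman's rho, 0.964, did pass (exact permutation p = 0.00278, adjusted p = 0.0167). Leaving out replicates 3 and 4, which lay farthest from the median of Myh2, gave r = 0.905. Pearson's r passed without replicate 3 (0.955, adjusted exact p = 0.00833) and without replicate 5 (0.912, adjusted exact p = 0.0167). As deposited, the rank order of the IIa and IIx signals was thus nearly the same over the samples. With quantile normalization r was 0.460 (adjusted exact p = 0.366).

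For Myh7 and Myh2, r was 0.847 (exact permutation p = 0.0240, adjusted p = 0.0720) and rho 0.821 (exact permutation p = 0.0341, adjusted p = 0.102). Without both replicates 3 and 4 r was 0.297, over a narrower range of levels. With any 1 replicate left out it ran from 0.771 to 0.903, so the relation rested on those 2 samples together and not on either alone. For Myh7 and Myh1, r was 0.662 (exact permutation p = 0.101, adjusted p = 0.202), rho 0.750 (exact permutation p = 0.0663, adjusted p = 0.133) and r 0.565 without replicates 3 and 4. The slow chain and the oxidative fast chain were thus high together mainly through the 2 samples in which both led.

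For Myh7 and Myh4, r was -0.342 (exact permutation p = 0.456, adjusted p = 0.684) and rho -0.500 (exact permutation p = 0.267, adjusted p = 0.400), with r = -0.206 without replicates 3 and 4 and -0.884 without replicate 2 (adjusted exact p = 0.0521). For Myh2 and Myh4, r was 0.0164 (exact permutation p = 0.973, adjusted p = 0.973) and rho -0.0357 (exact permutation p = 0.963, adjusted p = 0.963). It was 0.837 without replicates 3 and 4 and -0.897 without replicate 2. For Myh1 and Myh4, r was 0.184 (exact permutation p = 0.686, adjusted p = 0.823) and rho 0.107 (exact permutation p = 0.840, adjusted p = 0.963), with -0.382 without replicates 2 and 4 and -0.615 without replicate 2. The sign of r between Myh4 and the other fast chains therefore turned with single samples.

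**Figure D5:**
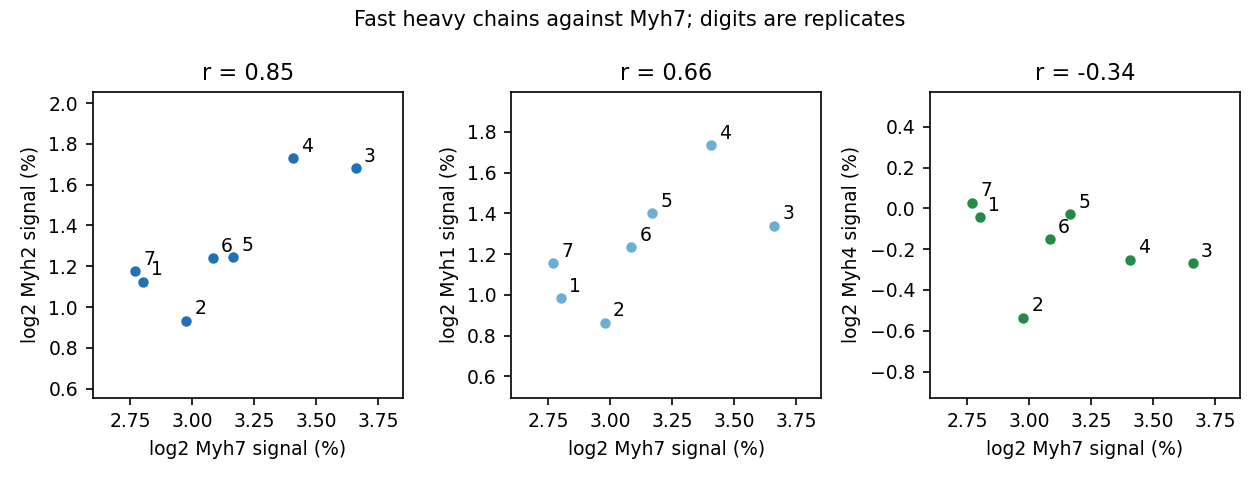
Log2 signal of Myh2, Myh1 and Myh4 (vertical axes, each spanning the same range) against that of Myh7 (horizontal axis), in percent of the summed array signal; digits are replicates. Replicates 3 and 4 lie at the upper right for Myh2 (r = 0.847), and in the lower part for Myh4 (r = -0.342).

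At an unadjusted exact p under 0.05, 2 of the 6 pairs passed, both with r above 0. Among the 780 pairs of other genes above the floor, 8.97% passed with r above 0 and 4.1% with r below 0, and the median r was 0.159. An r as high as that of Myh2 and Myh1 was exceeded in 2.82% of these pairs, and that of Myh7 and Myh2 in 3.21%. With quantile normalization no pair passed. There r was 0.751 for Myh7 and Myh2, 0.649 for Myh7 and Myh1, 0.460 for Myh2 and Myh1 and 0.559 for Myh7 and Myh4, the last with a changed sign (adjusted exact p = 0.305, 0.305, 0.366 and 0.305). Division by the array median adds 1 common term per array to every gene and raised the median r of the 780 other pairs to 0.771, so r on that scale was not read as a relation between members. With the floor subtracted, Myh7 and Myh2 and Myh2 and Myh1 passed, with r = 0.866 and 0.873 (adjusted exact p = 0.0476 for both).

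The levels of the 4 genes were set against 3 properties of the array, and none of the 12 relations passed after adjustment. The 28S signal, on the same scale, was lowest in replicates 3 and 4, at 3.88% and 5.35%, and lay between 12.6% and 21.6% in the other 5. Its r with Myh2 was -0.967 (exact permutation p = 0.00694, adjusted p = 0.0833 over 12 relations; rho = -0.750, exact permutation p = 0.0663, adjusted p = 0.114), and -0.891 without replicates 3 and 4. With Myh7 r was -0.856 (exact permutation p = 0.0185, adjusted p = 0.111; rho = -0.714, exact permutation p = 0.0881, adjusted p = 0.132), and -0.0301 without those replicates. The 28S signal was thus low where the slow and IIa chains were high, and its part in their correlation was not tested. With Myh1 r was -0.715 and with Myh4 0.0101 (adjusted exact p = 0.146 and 0.978; rho = -0.643 and 0.143, adjusted exact p = 0.185 and 0.783), and -0.672 and -0.905 without replicates 3 and 4. The array median, from 0.06% to 0.20%, had r = -0.811 with Myh7, -0.612 with Myh2, -0.727 with Myh1 and 0.317 with Myh4 (adjusted exact p = 0.117, 0.221, 0.146 and 0.586). Spearman's rho was -0.837, -0.782, -0.837 and 0.255 (adjusted exact p = 0.105, 0.107, 0.105 and 0.695), and r without the 2 farthest samples was -0.748, -0.464, -0.569 and 0.106. The 10th percentile had r from -0.703 with Myh1 to 0.124 with Myh4, and none of the 12 relations passed.

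Of the ratio's 4 relations with array measures, none passed. The slow-to-fast log2 ratio had r = -0.358 with the log2 10th percentile, -0.596 with the median, -0.443 with 28S and 0.601 with the summed signal of the 4 members (adjusted exact permutation p = 0.438, 0.312, 0.415 and 0.312). Spearman's rho was -0.468, -0.509, -0.321 and 0.536 (adjusted exact permutation p = 0.388, 0.388, 0.498 and 0.388). Without the 2 farthest samples r was -0.424, -0.603, 0.680 and 0.215. Without replicate 2, those with 28S and with the summed members passed (r = -0.825 and 0.878, adjusted exact p = 0.0167 each), and without replicate 3 that with 28S was 0.142. Myh7 enters the ratio and held 60.2% of the summed signal of the members on average. The r with that sum is therefore in part built in, also for the ratio of Myh7 to Myh4. For Myh7 to Myh4, examined after its spread was seen, r was -0.508, -0.753, -0.648 and 0.804 in the same order (adjusted exact permutation p = 0.247, 0.108, 0.157 and 0.108). Spearman's rho was -0.559, -0.618, -0.500 and 0.679 (adjusted exact permutation p = 0.267 each), and r without the 2 farthest samples was -0.743, -0.620, 0.641 and 0.319. Of the 7 samples, replicates 1 and 7, with the highest floors (0.13% and 0.09%), had the lowest Myh7 to Myh4, and the part of the floor was addressed only by subtracting it, as given above.

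No gene followed the slow-to-fast ratio after adjustment. Of the 199 other genes, 0 passed in either direction (0%; smallest adjusted p = 0.506, exact permutation test with Benjamini-Hochberg adjustment). At an unadjusted exact p under 0.05, 3 had r above 0 (1.51%) and 13 had r below 0 (6.53%). These counts were 0 and 0 without replicate 7 and 1 and 8 without replicate 1, and those with r below 0 numbered 2 without replicate 3 and 3 without replicate 6. Over all 199 genes the median r was -0.454, and 15 had r above 0, so as deposited most genes were lower where the ratio was higher. With quantile normalization the median r was 0.125 and 112 of 198 genes had r above 0, so this tendency belongs to the deposited scale.

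The 3 genes with r above 0 were Cox6a2, the muscle form of a cytochrome oxidase subunit, at r = 0.849, Cox5b, another subunit, at 0.802, and the glycolytic enzyme Gapdh at 0.760. They were also the 3 genes above the floor with the highest r (exact permutation p = 0.0192, 0.0312 and 0.0442, adjusted p = 0.506 each). Cox6a2 was 11.2% and 9.14% in replicates 3 and 4, and 4.31% and 4.77% in replicates 1 and 7. It therefore had its extremes in the same samples as Myh7. With quantile normalization the r of Cox5b was 0.0937, while Cox6a2 and Gapdh had 0.773 and 0.720. The lowest r above the floor were those of Pole2, a DNA polymerase subunit, at -0.845, Igf2, insulin-like growth factor 2, at -0.798, and Il6st, the signalling subunit of interleukin 6 family receptors, at -0.782 (adjusted exact permutation p = 0.506 each). Il6st was 0.21% and 0.26% in replicates 3 and 4 and 1.89% in replicate 7.

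By the likeness of log2 levels over the 7 samples, given as a description and only among the 40 other genes above the floor, Myh7 was most like Cox6a2 (r = 0.956), Gapdh (0.952) and desmin (Des), which forms intermediate filaments in muscle (0.788). Myh2 was most like Des (0.898), Gapdh (0.730) and Cox6a2 (0.711). Myh1 was most like Des (0.897), the integrin subunit Itgb1 (0.752) and Gapdh (0.679). Des, which ties neighbouring myofibrils together, was 3.0% in replicate 4 and 2.61% in replicate 3, and 1.40% in replicate 2. The signals of these genes share each array's common factor with the heavy chains. Among the same 40 genes, Myh4 was most like Il6st (0.631), Igf2 (0.625) and the muscle transcription factor Mef2c (0.625). With quantile normalization the first 2 of these turned to -0.558 and -0.670 and Mef2c to 0.0948, so none of these 3 was as like Myh4 on both scales.

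Ratios of the 4 members to 7 other genes (Des, Ttn, Mb, Gapdh, Cox6a2, Cox4i1 and Car3), chosen after values were seen, were taken within each sample. Cox6a2, Gapdh and Des were the 3 genes most like Myh7 in these samples, and Des the most like Myh2 and Myh1. Narrow ratios to them are therefore in part fixed by the choice. The least variable ratio was Myh7 to Gapdh. It ran from 0.768 to 0.939 with an SD of 0.10 on the log2 scale, against 0.23 for Myh2 to Gapdh, 0.25 for Myh1 to Gapdh and 0.44 for Myh4 to Gapdh. Relative to Des, the SD was 0.20 for Myh2, 0.21 for Myh1, 0.26 for Myh7 and 0.46 for Myh4. Relative to titin (Ttn), the giant spring of the sarcomere, the order was turned, with 0.25 for Myh4, 0.27 for Myh1, 0.36 for Myh2 and 0.42 for Myh7. Relative to carbonic anhydrase 3 (Car3), abundant in slow fibres, it was 0.26 for Myh4 and 0.54 for Myh7.

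The fixed lists of fibre genes gave 0 calls after adjustment. Of 30 genes of the sarcomere and its scaffold, 2 were on the array, Des with r = 0.302 and Ttn with r = -0.364 against the slow-to-fast ratio. Of the slow oxidative list 16 were on the array, and 6 of them had r above 0, with a median of -0.327. Over all 199 genes 15 had r above 0, with a median of -0.454. The 6 were all among the 14 above the floor, whose median was also -0.327. Over all 40 genes above the floor other than the heavy chains, 12 had r above 0, with a median of -0.394, close to that of the list. The 14 above the floor included myoglobin (Mb), the oxygen store of muscle, at r = 0.298, the cytochrome oxidase subunit Cox4i1 at 0.685, the heart-type lactate dehydrogenase Ldhb at 0.562 and the fatty acid binding protein Fabp3 at 0.235. The acyl-CoA dehydrogenases Acadm and Acadl had -0.363 and -0.356, and the insulin-responsive glucose transporter Slc2a4 had -0.383. None of these passed after adjustment. With quantile normalization Cox4i1 had -0.414, Mb -0.680 and Acadl 0.877, and 9 of the 16 had r above 0.

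Of the fast glycolytic list 8 were on the array, 4 of them above the floor, with a median r of -0.405 over the 8. Against 15 of all 199 genes and 12 of the 40 above the floor, 3 of the 8 had r above 0, all 3 above the floor. Besides Gapdh these were the glycolytic enzymes Aldoa at 0.171 and Pgk1 at 0.114, while Car3, which that list holds although slow fibres are rich in it, had -0.446. Of the 8 fibre type regulators on the array, 1 was above the floor, Mef2c at r = -0.777 (exact permutation p = 0.0375, adjusted p = 0.506), and 0 had r above 0, against 15 of all 199 genes. With quantile normalization Mef2c was at 0.371 and 4 of the 8 had r above 0.

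Of the markers of other cells on the array, Cdh5 and Fabp4 were above the floor and the rest were near it. Primer and probe differ between genes, so these signals do not measure how much RNA those cells gave. Of the endothelial list 5 of 7 genes were on the array and 1, the cadherin Cdh5, was above the floor, and their summed level ran from 0.45% to 1.06%. All 5 had r below 0 with the slow-to-fast ratio (median -0.730), where 15 of all 199 genes had r above 0. With quantile normalization 3 of the 5 had r above 0, and their part in the ratio was not tested. The 2 adipocyte markers Fabp4 and Pparg summed to 0.43% to 0.70% (median r = -0.236). The immune genes Il1b and Il6 summed to 0.05% to 0.43%, the matrix genes Fn1 and Tnc to 0.102% to 0.558%, and the satellite cell marker Myf5 ran from 0.02% to 0.18%, with none above the floor. Of the nerve and erythrocyte lists 0 genes were on the array.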

How the data were processed

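The authors deposited 1 linear ratio per spot and sample. Without spot 1M and the 28S spot a column summed to 0.9986 to 1.0002, so values are given as a percent of that sum. The labels' protocols give extraction and labelling, but no image analysis or background step. Depth does not apply to these arrays, and their number limits the precision. Spots were named by the platform annotation. The symbols of all 4 members matched the RefSeq gene table by Entrez identifier. Log2 values as deposited were used with no pseudocount. Quantile normalization was an alternative, because on a small array it sets the value of a bright spot by its rank. The members and the gene lists were chosen with earlier results of these data known. Tests were exact permutations over all 5040 pairings, two-sided, with Benjamini-Hochberg adjustment, and were tried on simulated data. The planted effects there were strong, so the simulation does not show how small an effect 7 samples could detect. Genes above the floor were named by r with each member and with the slow-to-fast ratio, the 3 highest each and, for the ratio, the 3 lowest, plus those of the sarcomere, slow oxidative and fast glycolytic lists. Python 3.11.15, numpy 2.4.6 and pandas 2.3.3 were used.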

Additional observations from a re-analysis of the deposited data

How the results depend on the processing

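The mean log2 ratios of all 6 pairs and the 4 levels moved by less than 1 SD under every alternative run, and the slow-to-fast log2 ratio did so except with the sum of the fast chains in place of their mean log2, which defines another quantity (0.60). Division by the array median adds a common term to all genes of an array, and the median r of other gene pairs was then 0.771. On that scale r, not read as a relation between members, was 0.985 for Myh7 and Myh2, 0.964 for Myh7 and Myh1, 0.929 for Myh7 and Myh4, 0.985 for Myh2 and Myh1, 0.944 for Myh2 and Myh4 and 0.974 for Myh1 and Myh4, all past the threshold. With the 10th percentile subtracted, Myh7 and Myh2 (0.866) and Myh2 and Myh1 (0.873) passed, as they did with a local floor, the median of near-floor spots within 3 steps, chosen after seeing the data (0.873 and 0.883). With quantile normalization no pair of members passed and Myh7 and Myh4 turned to 0.559, and the slow-to-fast ratio passed against the array median (-0.937). The spread comparisons, of which none passed in any setting, turned sign with quantile normalization for slow-to-fast over Myh2/Myh1 (-0.562), Myh7 over Myh4 (-0.128), Myh2 over Myh4 (-0.168) and Myh1 over Myh4 (-0.226), and with the local floor for Myh2 over Myh1 (-0.010). Genes following the ratio after adjustment numbered 1 with quantile normalization (Lamc1, near the floor) and 0 in all other settings. At an unadjusted exact p under 0.05, those with r above 0 numbered 29 with quantile normalization, 0 with the sum of the fast chains and 5 with the array median divided out. Those with r below 0 numbered 3 with the sum, 0 with the array median divided out, 7 of 40 with only genes above the floor and 7 of 79 with the local floor. The causes of these changes were not tested.

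With 1 replicate left out in turn, r ran from 0.749 to 0.955 for Myh2 and Myh1 (passing without replicate 3 and without replicate 5), from -0.897 to 0.164 for Myh2 and Myh4, from -0.615 to 0.477 for Myh1 and Myh4 and from -0.884 to -0.146 for Myh7 and Myh4 (each lowest without replicate 2). For Myh7 and Myh2 r ran from 0.771 to 0.903, and for Myh7 and Myh1 from 0.591 to 0.829. For the slow-to-fast ratio it ran from -0.825 to 0.142 with 28S and from 0.259 to 0.878 with the summed members, which hold Myh7 too. The spread comparisons ran from -0.542 to 0.502 for slow-to-fast over Myh1/Myh4, from -0.163 to 0.513 for Myh7 over Myh2, from -0.429 to 0.510 for Myh7 over Myh1, from -0.470 to 0.266 for Myh2 over Myh1, from -0.014 to 0.706 for Myh1 over Myh4, from 0.147 to 0.933 for Myh7 over Myh4 and from 0.170 to 0.887 for Myh2 over Myh4, the last 3 highest without replicate 2. Sign changes there came without replicates 3, 4 or 7, where r was 0.502 without replicate 4 for the first, -0.163 and -0.052 without replicates 3 and 7 for the second and -0.429 and -0.013 for the third. Genes at an unadjusted exact p under 0.05 numbered 0 to 4 with r above 0 and 0 to 18 with r below 0.

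No paired analysis was possible because the samples form 1 group.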
